A study of Mus musculus with 5 samples.

Results

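Broad accessible domains were the 878 merged DNase I sites of 4000 bp or more that had a peak in every distinct peak list of the series. They were chosen by joining the peaks of the 3 distinct lists wherever these overlapped by at least 1 bp, on the mouse build mm9, and by keeping the joined sites of that width. They made up 2.75% of the 31871 sites present in all 3 lists, and the series had 52181 merged sites in all. They held 4.72 Mb of the 57.0 Mb of the shared sites, or 8.28%. Width and presence in every list chose the domains, so both are given as descriptions. Scores, peak numbers, covered lengths and spacing come from the same intervals and are also described without a test.

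DNase I hypersensitive sites had been mapped in 3T9 fibroblasts, mouse embryonic fibroblasts (E13.5, mixed strain) immortalised by serial passage. All groups carried floxed c-myc alleles and had been infected in vitro with MycER, a fusion of Myc to the hormone-binding part of the estrogen receptor that 4-hydroxytamoxifen (4-OHT) activates. The treated group had 400 nM 4-OHT for 4 h, the control group had ethanol at 0 h, and each had 2 libraries. Whether the infected cells were 1 clone, and whether the libraries came from separate cultures, is not stated in the labels. The list of 4-OHT 4 h replicate 1 and that of EtOH 0 h replicate 2 held identical intervals and scores, so the 4 deposited lists gave 3 distinct ones. These are called the 4-OHT list (4-OHT 4 h replicate 2, 47621 peaks), the doubly labelled list (44956 peaks) and the vehicle list (EtOH 0 h replicate 1, 35149 peaks). Each treatment thus had 1 list of undisputed label, with no replicate check, and treatment could not be told apart from the replicate letter. The depth behind the lists is unknown.

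DNase I cuts chromatin where nucleosomes are displaced, and most hypersensitive sites are short stretches at promoters and enhancers. The widest stretches in mammalian cells are known from strongly transcribed genes, CpG-rich promoters and closely packed enhancers near genes that define a cell type. In fibroblasts such genes include those of the collagen matrix, the actin cytoskeleton, and the targets of YAP, TGF-beta and AP-1 signalling.

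The domains were set against a list of 43 known loci, whose positions on mm9 were written from general knowledge, rounded outwards to 10 kb, and not checked against an annotation of that build. At 23 of these loci at least 1 domain had its midpoint inside the window, and 12 of the 23 had an entry in the RefSeq promoter table (build GRCm38.p6). The promoters of the 4 loci with the widest domains among these 12 are printed to show sequence from genes that lie at such domains. Each runs from 250 bases before to 50 after the gene's start on GRCm38.p6, with the GC boxes GGGCGG and CCGCCC in capitals. Their place within the domains was not mapped, as the builds differ.
Amotl2 (chr9:102717554-102717853, strand +): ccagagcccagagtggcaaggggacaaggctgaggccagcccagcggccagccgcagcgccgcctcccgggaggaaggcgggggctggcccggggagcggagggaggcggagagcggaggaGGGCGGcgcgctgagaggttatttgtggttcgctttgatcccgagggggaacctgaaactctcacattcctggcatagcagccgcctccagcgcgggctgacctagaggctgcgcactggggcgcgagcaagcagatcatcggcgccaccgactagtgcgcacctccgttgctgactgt
Junb (chr8:84978699-84978998, strand -): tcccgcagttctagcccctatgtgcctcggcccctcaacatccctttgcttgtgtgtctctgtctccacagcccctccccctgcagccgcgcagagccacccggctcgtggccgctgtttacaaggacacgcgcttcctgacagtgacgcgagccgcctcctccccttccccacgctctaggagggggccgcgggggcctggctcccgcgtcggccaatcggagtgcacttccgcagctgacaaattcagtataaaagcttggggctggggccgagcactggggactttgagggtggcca
Myh9 (chr15:77842126-77842425, strand -): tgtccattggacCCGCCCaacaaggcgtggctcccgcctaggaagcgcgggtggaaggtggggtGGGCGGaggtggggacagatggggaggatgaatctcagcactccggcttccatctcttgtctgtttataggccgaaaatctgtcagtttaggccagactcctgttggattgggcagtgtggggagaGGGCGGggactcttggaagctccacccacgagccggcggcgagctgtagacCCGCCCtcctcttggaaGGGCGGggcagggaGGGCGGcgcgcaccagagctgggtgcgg
Ahnak (chr19:8989034-8989333, strand +): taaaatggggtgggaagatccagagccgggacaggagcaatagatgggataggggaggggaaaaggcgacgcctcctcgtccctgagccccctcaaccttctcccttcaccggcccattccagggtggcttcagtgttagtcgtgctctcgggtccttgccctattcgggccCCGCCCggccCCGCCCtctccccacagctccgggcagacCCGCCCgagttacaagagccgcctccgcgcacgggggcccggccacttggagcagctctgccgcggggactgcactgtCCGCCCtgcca
The Myh9 promoter held 6 GC boxes, that of Ahnak 4, that of Amotl2 1, and that of Junb 0. A GC box on either strand was found at 7 of the 12 loci with an entry and in 35.7% of the 32851 promoters of the table. The E-box CACGTG, the sequence Myc prefers, and the AP-1 motif (TGACTCA or its reverse complement TGAGTCA) were found at 0 of the 12 loci, against 7.15% and 5.2% of all promoters. A match or its lack describes the letters of these windows and says nothing of binding.

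Most domains were not much wider than the limit. Their median width was 4829 bp, their upper quartile 5765 bp, and 24 reached 10 kb. The shared sites under 4000 bp had a median width of 1534 bp. The narrowest domains, each 4001 bp wide, lay at chr3:30498271-30502271, chr9:110770100-110774100 and chr15:36721040-36725040. The widest sites that fell short, at 3999, 3995 and 3993 bp, lay at chr8:110067665-110071663, chr11:101947282-101951276 and chr17:25150257-25154249. Counts by width showed no step at the limit, with 1642 sites at 3 to 4 kb, 499 at 4 to 5 kb and 193 at 5 to 6 kb.

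**Figure D1:**
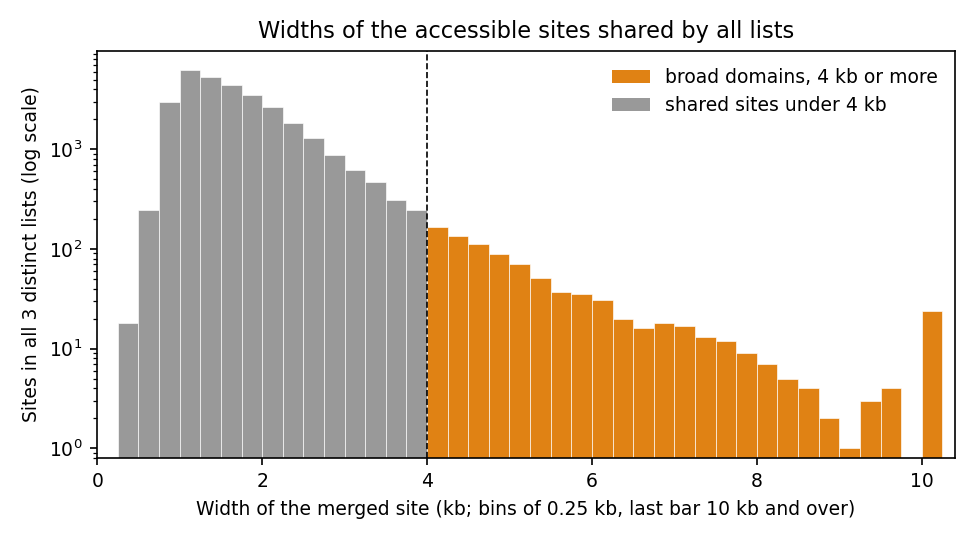
Number of sites present in all 3 distinct lists (log scale) by width of the merged site in kb, with the 878 broad domains in orange and the 30993 shared sites under 4 kb in grey. The counts fall without a step through the dashed line at 4 kb, and the last bar holds the 24 sites of 10 kb or more.

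A domain was often a single stretch in 1 list and several peaks in another. In every list it was a single peak at 412 of the 878 domains (46.9%, Wilson 95% interval 43.6% to 50.2%), against 95.4% of the shared sites under 4000 bp. Several peaks were called in 281 domains in the 4-OHT list, in 202 in the doubly labelled list and in 360 in the vehicle list. Thus the vehicle list split domains most often and the doubly labelled list least often. Of the shared sites under 4000 bp, 2.65% had several peaks in the 4-OHT list, 1.31% in the doubly labelled list and 2.38% in the vehicle list. At these narrower sites the 4-OHT list split most often. A domain whole in the 4-OHT list and split in the vehicle list was seen 152 times, and the opposite 73 times. Splitting in every list was seen at 88 domains. Whether depth moves these splits was not tested.

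Not every domain therefore rested on a broad peak of its own. A single peak of at least 4000 bp was present in every list at 280 domains (31.9%), in 1 or 2 lists at 464, and in no list at 134 (15.3%). By list, such a peak lay in 543 domains in the 4-OHT list, 640 in the doubly labelled list and 324 in the vehicle list. Peaks filled most of the median domain, though not of every domain. It was covered over 96.2% of its width in the 4-OHT list, 98.1% in the doubly labelled list and 85.7% in the vehicle list. The median shared site under 4000 bp was covered over 93.3%, 95.8% and 86.7% in the same lists. The lowest cover of a domain was 38.3% in the 4-OHT list, 41.5% in the doubly labelled list and 13.0% in the vehicle list. For the shared sites under 4000 bp the lowest cover was 26.3%, 31.6% and 18.2%, so low cover was no trait of domains. The lists' outer edges lay within 500 bp of the domain's edge at both ends in 53.9% of domains, against 86.8% of the shared sites under 4000 bp. The same 500 bp was used at both, and domains were chosen by joined width, so the contrast is no separate result.

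The widest domain lay in the window of Plec, which encodes plectin, a linker between intermediate filaments and the rest of the cytoskeleton. This domain, chr15:76017841-76040800 (22960 bp), was 1 peak of 22541 bp in the 4-OHT list, 1 peak of 22845 bp in the doubly labelled list, and 2 peaks of 22383 bp together in the vehicle list. Its covered lengths were close, whereas its scores were 886 in the 4-OHT list, 1525 in the doubly labelled list and 3100 in the vehicle list. The next, chr9:102616974-102635404 (18431 bp), lay in the window of Amotl2, an angiomotin family gene that YAP induces. It was 3 peaks in the 4-OHT list, 1 in the doubly labelled list and 4 in the vehicle list. On the X chromosome, chrX:166422313-166439695 (17383 bp) was 3 peaks in the 4-OHT list, 1 in the doubly labelled list and 3 in the vehicle list, and had 1 other site within 50 kb. The domain at chr2:173085861-173103002 (17142 bp) lay in the window of Pmepa1, a TGF-beta target that dampens the pathway, and had the most peaks of all domains in the vehicle list.

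Among the 10 widest, chr11:94802175-94818129 (15955 bp) lay in the window of Col1a1, the gene of a type I collagen chain. The domain at chr5:143571679-143586875 (15197 bp) was a single peak in every list, of 14723 bp in the 4-OHT list, 15064 bp in the doubly labelled list and 14959 bp in the vehicle list. By contrast, chr18:75525746-75539641 (13896 bp) was 3 peaks in the 4-OHT list, 1 in the doubly labelled list and 5 in the vehicle list. The domain at chr11:120089659-120103011 (13353 bp) was 2 peaks in the 4-OHT list, 1 in the doubly labelled list and 4 in the vehicle list. The 10 widest also held chr19:5838105-5850949 (12845 bp) in the window of Neat1, the noncoding RNA that builds paraspeckles, and a second Plec domain at chr15:75998602-76010520 (11919 bp). Among the 5 domains with most peaks in the vehicle list, chr2:35120138-35129824 (9687 bp) was not one of the 10 widest. It had 2 peaks in the 4-OHT list, 3 in the doubly labelled list and 4 in the vehicle list.

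**Figure D2:**
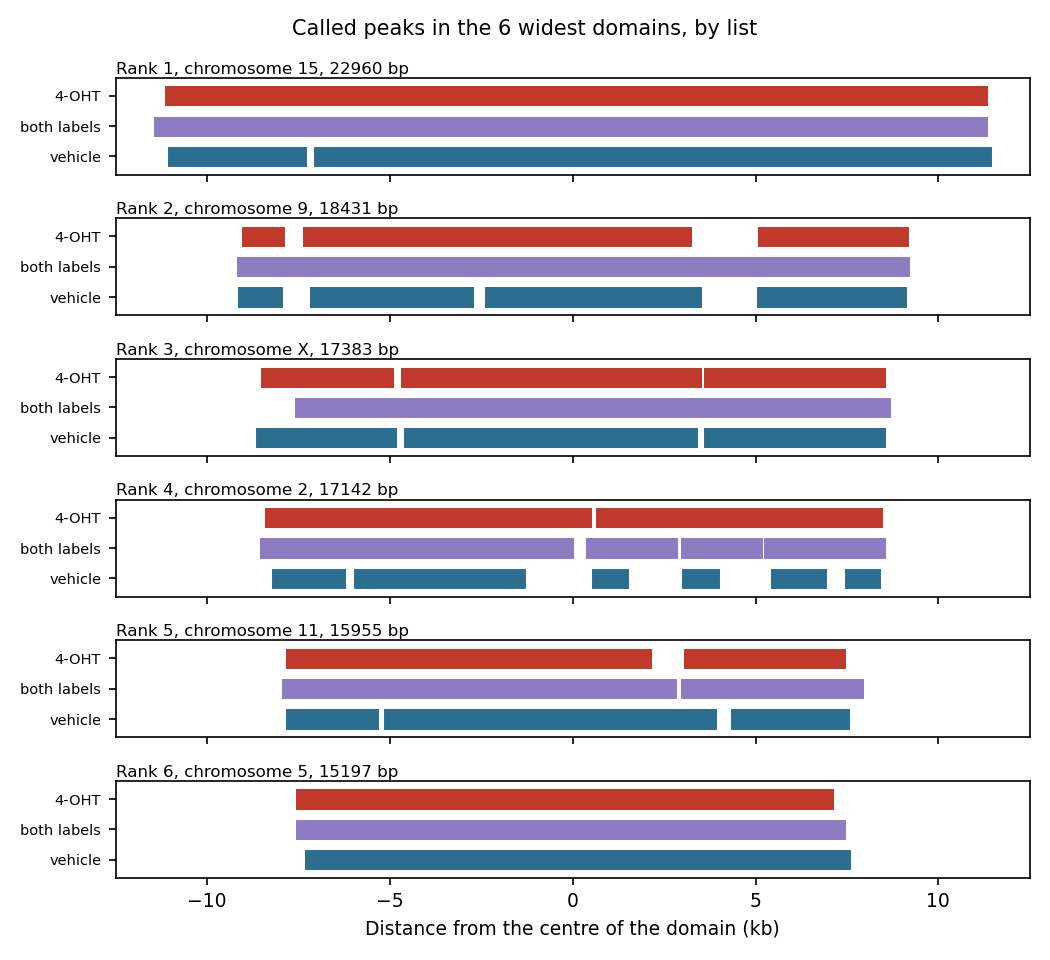
Called peaks in the 6 widest domains, drawn by list (4-OHT, doubly labelled, vehicle) against distance from the centre of the domain in kb. The chromosome 5 domain is 1 unbroken peak in each list, whereas the chromosome 2 domain is 2 peaks in the 4-OHT list, 4 in the doubly labelled list and 6 in the vehicle list.

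The peak caller's score reached its ceiling in many domains, and some wide domains scored low. The score is the caller's value per peak, the highest peak stands for a site, and values pile up at 3100, with some above it. A score of 3100 or more is called the ceiling here. It was reached in 561 domains in the 4-OHT list, 652 in the doubly labelled list and 390 in the vehicle list, and in every list in 385 (43.8%, 40.6% to 47.2%). Of the shared sites under 4000 bp, 7.57% reached it in every list. A wide peak can hold more reads, so score and width are not separate measures. The share at the ceiling in every list was 3.09% at 1 to 2 kb, 19.5% at 2 to 3 kb, 27.4% at 3 to 4 kb, 39.3% at 4 to 5 kb and 62.5% at 10 kb and over. A high score did not follow from width alone, as 48 domains (5.47%) stayed under 1000 and 11 under 500 in every list. Low scores were commoner at the shared sites under 4000 bp, of which 55.5% stayed under 1000 and 37.1% under 500 in every list. The Col1a1 domain of 15955 bp had scores of 783 in the 4-OHT list, 1733 in the doubly labelled list and 1453 in the vehicle list. The Plec domain of 11919 bp had 899 in the 4-OHT list, 368 in the doubly labelled list and 525 in the vehicle list.

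**Figure D3:**
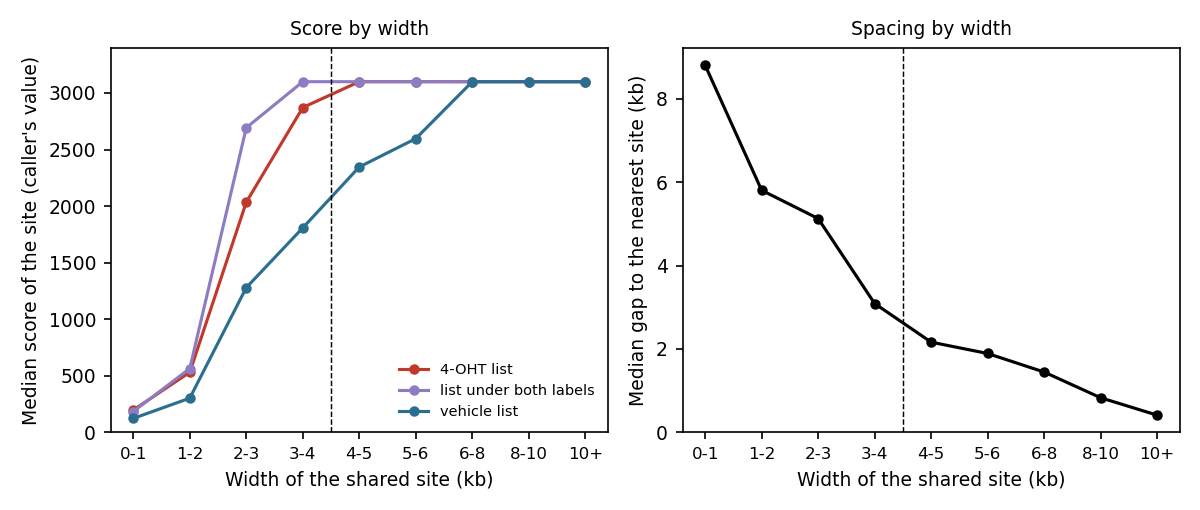
Median score of shared sites (left, 3 lists) and median gap in kb from a site's edge to the nearest merged site (right), by width class in kb, with the dashed line at 4 kb. The median score is at the ceiling of 3100 in all lists from 6 kb on, and the median gap is 8809 bp for sites under 1 kb and 412 bp for those of 10 kb and over.

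Domains lay close to other accessible sites. The median gap from a domain's edge to the nearest merged site was 1841 bp, against 5699 bp for the shared sites under 4000 bp. A neighbour within 1000 bp was present at 36.1% of domains (33.0% to 39.3%) and at 15.7% of the shared sites under 4000 bp. Within 50 kb of its edges the median domain had 9 other sites, against 5. Among sites at the score ceiling in every list, the median gap was 2191 bp at 385 domains and 7991 bp at 2346 shared sites under 4000 bp. Because joining takes 1 bp of overlap, some domains were parted by a few bases. At the Hoxa cluster, whose genes pattern the body axis and limbs, the domains at chr6:52107381-52112369, chr6:52112640-52119415 and chr6:52119444-52123736 followed each other with gaps of 270 and 28 bp.

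Of the 878 domains, 331 had another domain within 50 kb (37.7%). Domains linked at that distance formed 1 group of 8, 3 groups of 6, and 3 groups of 5, while 547 domains stood alone. The group of 8 spanned chr19:5723805-5850949, a stretch of 127 kb with the Malat1 and Neat1 domains, and domains made up 40.4% of it. A group of 6 at chr11:120047769-120213003 spanned 165 kb, and another at chr19:45088063-45157556 spanned 69.5 kb, with domains over 24.6% and 46.5% of the stretch. The other group of 6, at chr19:46468809-46607289, spanned 138 kb, with domains over 31.6% of it. At the other extreme, 18 domains (2.05%) had no other site within 50 kb, against 5.96% of the shared sites under 4000 bp.

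The most isolated domains were single peaks in every list. The first, chr17:39979513-39985923 (6411 bp), lay 1030521 bp from its nearest neighbour and scored 3162 in the 4-OHT list, 3226 in the doubly labelled list and 3100 in the vehicle list. By general knowledge of mm9, and looked up after its values had been seen, this is where the assembly places a copy of Rn45s, the 45S ribosomal RNA precursor. As background, that gene has many near-identical copies in the mouse genome, so a peak there is uncertain. The others were chr16:52449920-52454757 (4838 bp, 269351 bp from the nearest site) and chr7:6679627-6683781 (4155 bp, 205883 bp). How unique the sequence of any domain is was not examined.

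Domains were spread unevenly over the chromosomes. On chromosome 19, 85 of 1075 shared sites were domains (7.91%, 6.44% to 9.67%), and on chromosome 15, 96 of 1627 (5.90%, 4.86% to 7.15%). Over the other chromosomes together the share was 2.39% (2.22% to 2.57%). Chromosome 11 came next with 98 of 2596 (3.78%, 3.11% to 4.58%), and its interval does not reach that of chromosome 15. The lowest shares were 0.856% on X (5 of 584), 0.929% on chromosome 18 (8 of 861) and 1.04% on chromosome 1 (19 of 1827), whose intervals overlap. Intervals cover counting error over sites, and neighbouring sites are not independent.

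**Figure D4:**
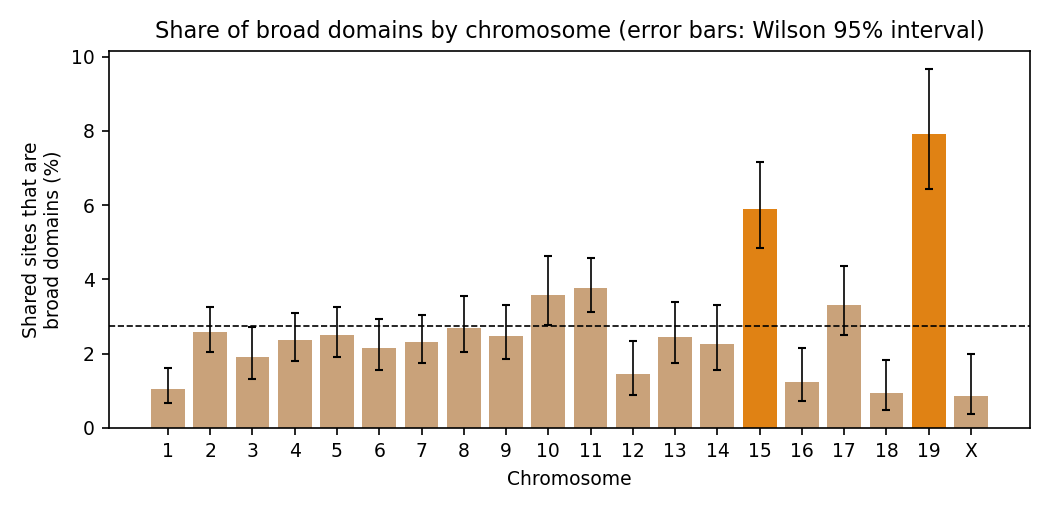
Percent of shared sites that are broad domains on each chromosome, with Wilson 95% intervals as error bars and the share over all chromosomes, 2.75%, as a dashed line. Chromosomes 15 and 19, in darker orange, stand at 5.90% and 7.91%, with intervals above those of every other chromosome.

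In each list taken alone, chromosomes 15 and 19 also held a larger share of the wide peaks than of all peaks. Other chromosomes were not examined list by list. Of the single peaks of 4000 bp or more, chromosome 15 held 11.6% in the 4-OHT list, 10.5% in the doubly labelled list and 10.3% in the vehicle list, against 5.23%, 5.30% and 5.37% of all peaks in these lists. Chromosome 19 held 8.36% of such peaks in the 4-OHT list, 9.57% in the doubly labelled list and 9.06% in the vehicle list, against 3.53%, 3.43% and 3.50% of all peaks. Widths were also greater below the limit. The median width of shared sites under 4000 bp was 1781 bp on chromosome 15 and 1692 bp on chromosome 19, ranks 1 and 2 of 20 chromosomes, and 1518 bp over the others. Their scores were not higher. On chromosomes 15 and 19 the median score of these narrower sites was 565 in the 4-OHT list, 601 in the doubly labelled list and 334 in the vehicle list, against 657, 735 and 377 elsewhere. The ceiling in every list was reached by 37.0% of the 181 domains on chromosomes 15 and 19 (30.3% to 44.3%) and by 45.6% of the others (42.0% to 49.3%). Of the 48 domains with scores under 1000 in every list, 25 lay on chromosomes 15 and 19, which held 20.6% of all domains. The copy number of these chromosomes was not tested.

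Along the chromosomes, 4 windows of 10 Mb held 114 of the 878 domains (13.0%), and 88 of the 275 windows with a shared site held none. The window at 40 to 50 Mb of chromosome 19 had 37 domains among 270 shared sites (13.7%). It was followed by 70 to 80 Mb of chromosome 15 with 34 of 386 (8.81%), the first 10 Mb of chromosome 19 with 25 of 274 (9.12%), and 110 to 120 Mb of chromosome 11 with 18 of 386 (4.66%). The window at 50 to 60 Mb of chromosome 19 had as many, 18 of 190 (9.47%), so the fourth place is a tie. The chromosome 15 window holds the Plec and Myh9 domains, and the first window of chromosome 19 those of Malat1, Neat1, Fosl1 and Ahnak.

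Covered lengths were compared between the 4-OHT list and the vehicle list, to ask whether domains differed 4 h after Myc activation. The median domain had 4544 bp under peaks in the 4-OHT list, 4635 bp in the doubly labelled list and 4128 bp in the vehicle list. The median ratio of the 4-OHT list to the vehicle list was 1.09, against 1.06 at the shared sites under 4000 bp. More was covered in the 4-OHT list at 730 of 878 domains (83.1%), against 68.4% of the shared sites under 4000 bp. At least 25% more was covered in the 4-OHT list at 199 domains (22.7%, 20.0% to 25.6%), against 17.5% of all shared sites. At least 20% less was covered at 9 domains (1.03%, 0.540% to 1.94%), against 3.15% of all shared sites. Each list was also kept to its 35149 peaks of highest score, the length of the vehicle list. Then 180 of 863 domains (20.9%) had at least 25% more and 18 (2.1%) at least 20% less covered. The share with at least 25% more was 26.0% at 3 to 4 kb, 23.0% at 4 to 5 kb, 23.3% at 5 to 6 kb, 22.8% at 6 to 8 kb, 11.5% at 8 to 10 kb (3 of 26) and 20.8% at 10 kb and over (5 of 24). At 1.5-fold or more, 93 domains (10.6%) had more covered, against 5.95% of all shared sites, and 3 had less, against 0.778%. Without the doubly labelled list in the merge, 130 of 639 domains (20.3%) had at least 25% more and 5 (0.8%) at least 20% less covered. Neither for the equal-length lists nor for this last merge is a share over all shared sites at hand.

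The doubly labelled list stood on the same side as the 4-OHT list although it carries both labels. Set against the vehicle list, which both comparisons share, it had at least 25% more covered at 250 domains (28.5%, with 21.4% of all shared sites) and at least 20% less at 5 (0.569%, with 2.3% of all shared sites). At 1.5-fold or more these were 102 domains with more, against 7.51% of all shared sites, and 3 with less, against 0.502%. The ratio also went with the vehicle score, which comes from the same vehicle peaks. In the 4-OHT list at least 25% more was covered at 39 of 67 domains with a vehicle score under 500 (58.2%), at 48 of 197 from 1000 to 2000 (24.4%) and at 50 of 390 at the ceiling (12.8%). With 1 list per label and unknown depth, no change with treatment can be read from these lengths.

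**Figure D5:**
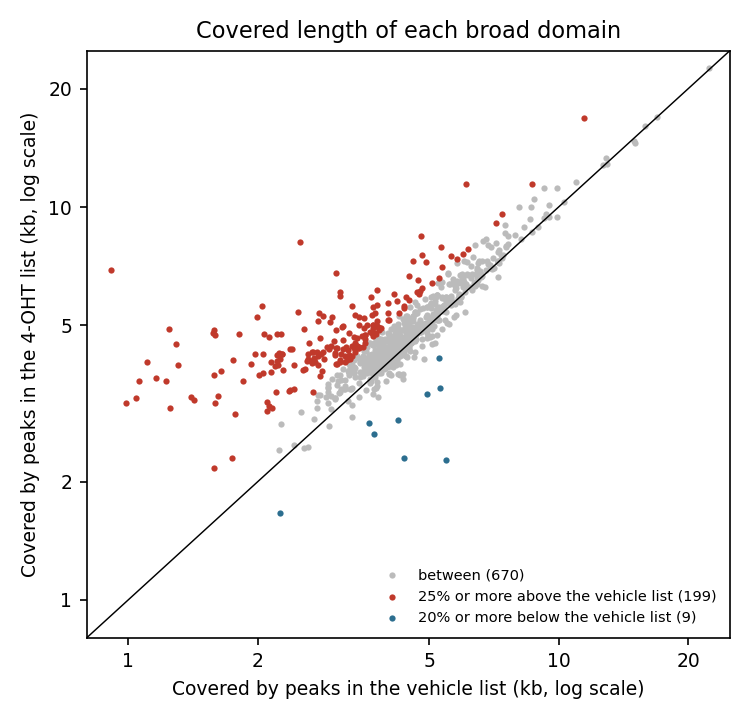
Kilobases covered by peaks in each of the 878 domains in the 4-OHT list (vertical axis) against the vehicle list (horizontal axis), both on log scales, with the line of equality. The 199 red points have at least 25% more covered in the 4-OHT list and a median of 3046 bp in the vehicle list, and the 9 blue points have at least 20% less.

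The domain with the highest ratio was chr8:125004563-125011545 (6983 bp), with 6912 bp covered in the 4-OHT list, 6556 bp in the doubly labelled list and 910 bp in the vehicle list (7.60-fold, 4-OHT over vehicle). It was followed by chr9:59525408-59530286 (4879 bp in the 4-OHT list, 3481 bp in the doubly labelled list and 1241 bp in the vehicle list) and by chr17:26337037-26341300 (4032, 4233 and 1105 bp in the same lists). The next were chr15:74423188-74428807 (3.46-fold) and chr2:117947981-117952309 (3.41-fold, in the window of Thbs1). In all of these the vehicle list held 1 peak with a score between 112 and 303, and the doubly labelled list was nearer to the 4-OHT list.

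The lowest ratio was at chr19:44376971-44382470 (5500 bp), with 2272 bp covered in the 4-OHT list, 2283 bp in the doubly labelled list and 5474 bp in the vehicle list (0.42-fold). At chr17:80099906-80104304 the lengths were 2294 bp in the 4-OHT list, 2394 bp in the doubly labelled list and 4366 bp in the vehicle list (0.53-fold). At chr15:75946736-75952125 they were 3471, 2975 and 5303 bp in the same lists (0.65-fold). The doubly labelled list was again near the 4-OHT list at these domains. At chr13:34167579-34172571 (0.68-fold) and chr19:45119651-45124588 (0.68-fold) it was not, with 4709 bp and 4321 bp covered, nearer to the vehicle list.

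The known loci gave names to 36 of the 878 domains, and as they were picked with earlier results in view, their share is no measure of enrichment. Genes of the cytoskeleton had a domain at 6 of 7 loci, with 10 domains in all. Plec had 3 domains of 42983 bp together. Actb, the gene of cytoplasmic beta-actin, had 1 of 11860 bp (chr5:143660360-143672219), at the ceiling in every list, with 11584 bp covered in the 4-OHT list, 11596 bp in the doubly labelled list and 10994 bp in the vehicle list. Myh9, the heavy chain of non-muscle myosin IIA, had domains of 8298 and 5049 bp. Ahnak, a giant scaffold protein at the membrane, had 2 domains, and Tpm1, a tropomyosin, and Cav1, the coat protein of caveolae, had 1 each. Flna, the actin crosslinker filamin A, had 4 shared sites of at most 2247 bp.

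Targets of YAP and TGF-beta signalling had a domain at 4 of 5 loci, with 7 domains in all. Cyr61, a matricellular protein gene, lay at a single peak in every list (chr3:145308210-145317706, 9497 bp), with 9457 bp covered in the 4-OHT list, 8652 bp in the doubly labelled list and 9493 bp in the vehicle list. Its relative Ctgf had 1 shared site of 3398 bp, below the limit. The wide Pmepa1 domain had 16858 bp covered in the 4-OHT list, 16798 bp in the doubly labelled list and 11443 bp in the vehicle list. Thbs1, which encodes a matrix protein that activates TGF-beta, had a domain with a ratio of 0.96 and another with 3.41. In these domains the doubly labelled list thus stood near the 4-OHT list at the wide Pmepa1 domain and below both others at Cyr61.

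AP-1 genes had a domain at 3 of 4 loci. Junb had 1 of 9562 bp (chr8:87497534-87507095), at the ceiling in every list, with 9400 bp covered in the 4-OHT list, 9475 bp in the doubly labelled list and 9232 bp in the vehicle list. The Jun domain of 4847 bp was a single peak at the ceiling in every list. That of Fosl1, which encodes Fra-1, had a ratio of 1.52 between the 4-OHT and vehicle lists, and Fos had a site of 3247 bp. Among loci of growth and the cell cycle, 4 of 5 had a domain. The Myc domain (chr15:61814310-61821816, 7507 bp) had 7201 bp covered in the 4-OHT list, 7485 bp in the doubly labelled list and 5819 bp in the vehicle list. Ccnd1, which encodes cyclin D1, had 6982 bp covered in the 4-OHT list, 7176 bp in the doubly labelled list and 6982 bp in the vehicle list. Hmga2, an architectural chromatin gene, and Gapdh, a glycolytic enzyme, had domains of 4920 and 4566 bp, and at Cdkn2a, the locus of p16 and Arf, the widest shared site was 2829 bp.

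Noncoding RNA loci had a domain at Neat1 and Malat1, and at neither H19 nor Xist. The Neat1 domain of 12845 bp covered 12790 bp in the 4-OHT list, 12845 bp in the doubly labelled list and 12687 bp in the vehicle list, all as single peaks at the ceiling. Both other Neat1 domains, of 4803 and 4009 bp, scored under the ceiling in every list. The Malat1 domain, at an RNA of nuclear speckles, had 5234 bp covered in the 4-OHT list, 4974 bp in the doubly labelled list and 3443 bp in the vehicle list. Of the Hox clusters, Hoxa had 4 domains of 23688 bp together, all at the ceiling in every list. Hoxb, Hoxc and Hoxd had none, with 1 shared site each.

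Fibroblast loci had a shared site at 8 of 9 and a domain at 3 of 9. The domains lay at Col1a1 (7497 and 15955 bp), at Vim, the gene of the intermediate filament vimentin (4802 bp), and at Prrx1, a mesenchymal homeobox gene (4073 bp). The shared sites at Col1a2, Fn1, Thy1, Sparc and Twist1 were at most 3436 bp wide. Col3a1, a type III collagen gene and a fibroblast marker, had 2 sites and 0 in all lists. Loci of other cell types had a domain at 0 of 5. Alb of hepatocytes, Ptprc of leukocytes and Pou5f1 of pluripotent cells had no site in any list, whereas Nanog and the epithelial gene Cdh1 had shared sites of at most 2277 and 2170 bp. Of all 36 named domains, 20 were at the ceiling in every list. At least 25% more was covered in the 4-OHT list at 8 of them, and at least 20% less at 0. Over all domains the shares were 43.8% at the ceiling, 22.7% with more and 1.03% with less covered.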

How the data were processed

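DNase-seq peak lists of 4 libraries were used, and no list was used for the input library. Per the submitters' processing notes, reads were handled with BWA 0.6.2, SAMtools and MACS 1.4.1 on mm9; settings are not given. The deposited score is the caller's value for each peak, as written by the authors. How the input library entered the calling is not stated in those sources.

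Peaks were joined at 1 bp of overlap, checked against bedtools 2.31.1, and the joining was tested on 2000 simulated sites. Covered length is the sum of peak widths in a site. Starts are counted from 1. Computation used Python 3.11.15, numpy 2.4.6, pandas 2.3.3, scipy 1.17.1 and matplotlib 3.10.9. Shares carry Wilson 95% intervals, which cover counting error over sites. No p-value was computed, as each treatment had 1 list of undisputed label.

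The domains and loci were chosen with earlier results of these data known. Domains named are the 10 widest, the 3 nearest the limit on each side, the 5 highest and 5 lowest ratios, the 5 most divided in the vehicle list, the 3 most isolated, the largest groups (4, as 3 tie at 6 domains), and those at listed loci. The rule that a domain's midpoint lies in the locus window was chosen after values had been seen. A locus of the list is not reported here and is left out of its counts. For 39 single genes of the list, the window was as long as the gene on GRCm38 or longer. Alternatives were other widths, overlaps, score limits, list lengths, folds and left-out lists.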

Additional observations from a re-analysis of the deposited data

How the results depend on the processing

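No paired analysis was possible because 4-OHT 4 h replicate 1 shares its list with EtOH 0 h replicate 2 and no result comes from a test. The main values were 878 domains, 46.9% single peaks in every list, 43.8% at the ceiling in every list, and 199 domains with at least 25% more and 9 with at least 20% less covered in the 4-OHT list. In the same order, these were 2520, 60.6%, 33.1%, 626 and 44 at 3000 bp or more, 379, 34.0%, 49.9%, 84 and 3 at 5000 bp or more, and 1394, 22.7%, 33.2%, 452 and 23 with peaks up to 500 bp apart joined. Joining at a larger overlap, of 50% of the shorter peak, gave 53.7% single peaks. A fold of 1.5 gave 93 with more and 3 with less covered. Domains with less covered were 18 at equal list length and 5 without chromosomes 15 and 19, a setting added after seeing the data. Leaving out each list in turn gave 639 to 848 domains, 59.4% to 62.3% single peaks and 47.6% to 64.2% at the ceiling, both shares over the lists that remained. Without the doubly labelled list, 130 domains had more and 5 less covered. Shares over all shared sites are given for the main merge only. Of the values of these 5 results under all settings, 28 moved and 25 stayed within the counting interval of a share or within 1.5 times a count. Depth is unknown, so a gap inside a domain cannot be called closed chromatin.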

Other observations

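The 11 domains with scores under 500 in every list were singled out after their values had been seen. Of these, 6 lay on chromosome 15 and 2 on chromosome 19, which held 10.9% and 9.68% of all domains. The widest was chr15:27519056-27529638 (10583 bp), with 8153 bp covered in the 4-OHT list, 10108 bp in the doubly labelled list and 2508 bp in the vehicle list. Another, chr12:20235427-20240360 (4934 bp), was a single peak in every list, with scores of 449 in the 4-OHT list, 397 in the doubly labelled list and 411 in the vehicle list.

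Beside the domains, 9 sites of 4000 bp or more lacked a peak in at least 1 list, and 7 of them lacked it in the vehicle list. Over all widths, 31871 of 52181 merged sites had a peak in every list, and the vehicle list was the shortest, with 35149 peaks. The share of all merged sites without a vehicle peak is not at hand, so whether the 7 are a trait of wide sites cannot be told. Of the 9, 5 lay on chromosomes 15 and 19, which held 20.6% of the domains. At chr7:148679650-148683926 the 4-OHT list had 4277 bp covered with a score of 1266, the doubly labelled list 2440 bp with a score of 166, and the vehicle list no peak. The widest of the 9, chr11:3028213-3038117 (9905 bp), was in the doubly labelled list alone. The mitochondrial genome had 1 peak of 6574 bp, in the vehicle list alone.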
